A study of Mus musculus with 2 samples.

Results

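The interleukin-1 (IL-1) family was followed here through 9 genes, chosen by symbol from the 32285 genes listed for both libraries: the ligands Il1a, Il1b, Il18 and Il33, the receptor antagonist Il1rn, and the receptors Il1r1, Il1r2, Il1rap and Il1rl1. All 9 symbols were found. The material was pancreatic tumour tissue of KPPC mice, a genetically engineered model of pancreatic ductal cancer, sampled as dissociated single cells at 6 weeks of age by the labels. The vehicle group received the carrier alone and the takinib group received takinib at 50 mg/kg, each for 14 days; the drug inhibits TAK1, the kinase encoded by Map3k7. Each group had 1 library, both groups carried the KPPC genotype, and the labels do not give the alleles behind that name or the number of mice pooled in a library. No test between treatments was therefore possible and no p-value is given.

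IL-1 alpha and IL-1 beta are ligands of 1 receptor, IL1R1, which signals after the accessory chain IL1RAP joins it. Signalling then runs through MYD88, IRAK kinases, TRAF6 and TAK1 to NF-kB and AP-1. The antagonist encoded by Il1rn occupies IL1R1 without recruiting IL1RAP, and IL1R2 is a decoy that binds ligand and does not signal. IL-18 and IL-33 are related cytokines; IL-33 is stored in the nucleus of epithelial and stromal cells and acts on IL1RL1, also called ST2, together with IL1RAP. IL-1 beta and IL-18 are made as precursors that caspase-1 cuts, so transcript levels do not give the amount of active cytokine. In pancreatic tumours IL-1 from myeloid or tumour cells is known for acting on fibroblasts.

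Il1b and Il1a lie next to each other on chromosome 2, and Il1rn lies on the same chromosome. In GRCm38, Il1a spans chr2:129299610-129309972 and Il1b spans chr2:129364570-129371139, both on the minus strand, and Il1rn spans chr2:24336853-24351494 on the plus strand. Il1r2 (chr1:40074079-40125231), Il1r1 (chr1:40225080-40317257) and Il1rl1 (chr1:40429570-40465415) lie in 1 row on the plus strand of chromosome 1. Il1rap spans chr16:26581704-26730117, Il18 spans chr9:50554827-50581840 and Il33 spans chr19:29925114-29960718, all on the plus strand. The 2 promoters below are shown because Il1a and Il1b were both highest in neutrophil-like cells and higher in takinib, and the short stretch of Il1rn because it holds the single NF-kB motif found. They come from RefSeq (GRCm38.p6), are written 5′ to 3′ on the gene's strand, and end 1 base before the transcript start. Capitals mark every match to 5 motifs searched on both strands: TGANTCA (AP-1), the 10-base NF-kB consensus, TTGCNNAA (C/EBP), GAGGAAG (PU.1) and TATAAA (the core promoter box).
Il1a promoter, chr2:129309973-129310222, minus strand: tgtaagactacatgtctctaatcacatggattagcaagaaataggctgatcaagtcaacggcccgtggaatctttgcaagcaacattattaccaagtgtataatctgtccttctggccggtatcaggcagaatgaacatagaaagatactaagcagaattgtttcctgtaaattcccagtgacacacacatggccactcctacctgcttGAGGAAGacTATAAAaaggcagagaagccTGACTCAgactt
Il1b promoter, chr2:129371140-129371389, minus strand: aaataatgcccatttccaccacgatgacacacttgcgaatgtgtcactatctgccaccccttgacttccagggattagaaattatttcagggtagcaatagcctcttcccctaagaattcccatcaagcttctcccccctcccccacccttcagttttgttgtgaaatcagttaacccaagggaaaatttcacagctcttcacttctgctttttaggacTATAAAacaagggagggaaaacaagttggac
Il1rn stretch, chr2:24345310-24345339, plus strand: ggaaatatgaGGGTTTTTCCgcttctgaca
The 9 genes had 14 such windows of 250 bases, since some have several RefSeq starts. The Il1a window held a TATA match 32 bases before the start, a PU.1 match at 41 and an AP-1 match at 12. The Il1b window held a TATA match 31 bases before the start and no other match. The Il1rn stretch belongs to the third window of that gene, where the NF-kB match began 51 bases before the start, and the first Il1rn window held an AP-1 match at 141 bases. Among the 14 windows, 2 held the AP-1 motif, 1 NF-kB, 3 C/EBP, 1 PU.1 and 5 TATA. Of all 32851 RefSeq windows of the same length, 6.75% held AP-1, 4.11% NF-kB, 9.56% C/EBP, 10.6% PU.1 and 12.4% TATA. The Il1r2 and Il1rap windows held none of the 5, which says only that these letters are not in these windows, and a match is a description of letters rather than a site.

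The libraries differed in ways that touch every comparison. The vehicle matrix held 704261 barcodes down to 0 unique molecular identifiers (UMIs, each counting 1 captured RNA molecule), and the takinib matrix 34158 barcodes with at least 500. After equal filters and removal of doublets, 9558 vehicle and 25183 takinib cells remained. They held 42000538 and 119726977 UMIs, at median depths of 3556 and 2887 UMIs per cell. The libraries shared 400 barcodes past the filters, 4.05% of the vehicle and 1.49% of the takinib barcodes. In vehicle 1075 kept cells had Xist without Y-linked UMIs and 3087 the reverse, so that library held cells of both sexes, whereas takinib had 14324 cells with Xist and 0 with Y-linked UMIs. Mitochondrial UMIs had a median share of 8.70% among vehicle cells and 1.79% among takinib cells. The neutrophil transcripts S100a8 and S100a9 stood at 282 CPM (counts scaled to the summed UMIs of a group of cells) in vehicle macrophage-like cells and at 7351 CPM in takinib ones, and 99.3 and 9903 in epithelial-like cells.

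Cells were grouped by clustering without the 9 genes and named "-like" from marker genes. Macrophage-like cells made up 50.8% of vehicle cells (4853) and 24.3% of takinib cells (6127). Neutrophil-like cells made up 2.78% (266) and 48.2% (12143). Epithelial-like cells numbered 1729 and 1925, monocyte-like cells 170 and 981, fibroblast-like cells 699 and 354, cells with endothelial markers 709 and 102, T-like cells 249 and 1254, and B-like cells 207 and 1235. Neutrophil-like cells of the libraries fell into different clusters: 134 and 67 of the vehicle cells lay in 2 clusters led by Siglecf that held 1 and 2 takinib cells. Most takinib cells lay in clusters led by Cxcr2 (3444), Ccl3 (3248), Stfa2 (2325) and Lst1 (2013). Levels below are CPM of a class in a library, and square brackets give 95% exact intervals that cover counting error only.

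Over all kept cells, 5 of the 9 genes were more than 2-fold higher in takinib: Il1b, Il1a, Il1rn, Il1r2 and Il1rap. Of the 16229 genes with at least 50 counts over both libraries, 8.06% were as much higher and 18.8% as much lower, with a median log2 ratio of -0.33. Il1b stood at 301 CPM in vehicle and 2560 in takinib, a log2 ratio of 3.09 [3.06, 3.11]. Il1r2 had the widest gap, 23.9 against 374 CPM (log2 ratio 3.97 [3.88, 4.06]). Il1rn moved from 101 to 525 CPM, Il1a from 43.4 to 219 and Il1rap from 8.74 to 48.2. These 5 genes were highest in neutrophil-like cells in both libraries. Il1r1 (16.2 and 20.25 CPM), Il18 (23.1 and 29.4), Il33 (15.02 and 10.04) and Il1rl1 (2.19 and 2.06) differed by less than 2-fold. In such sums a difference in the number of cells of a class and a difference in RNA per cell cannot be told apart, which is why the classes are taken one by one.

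**Figure D1:**
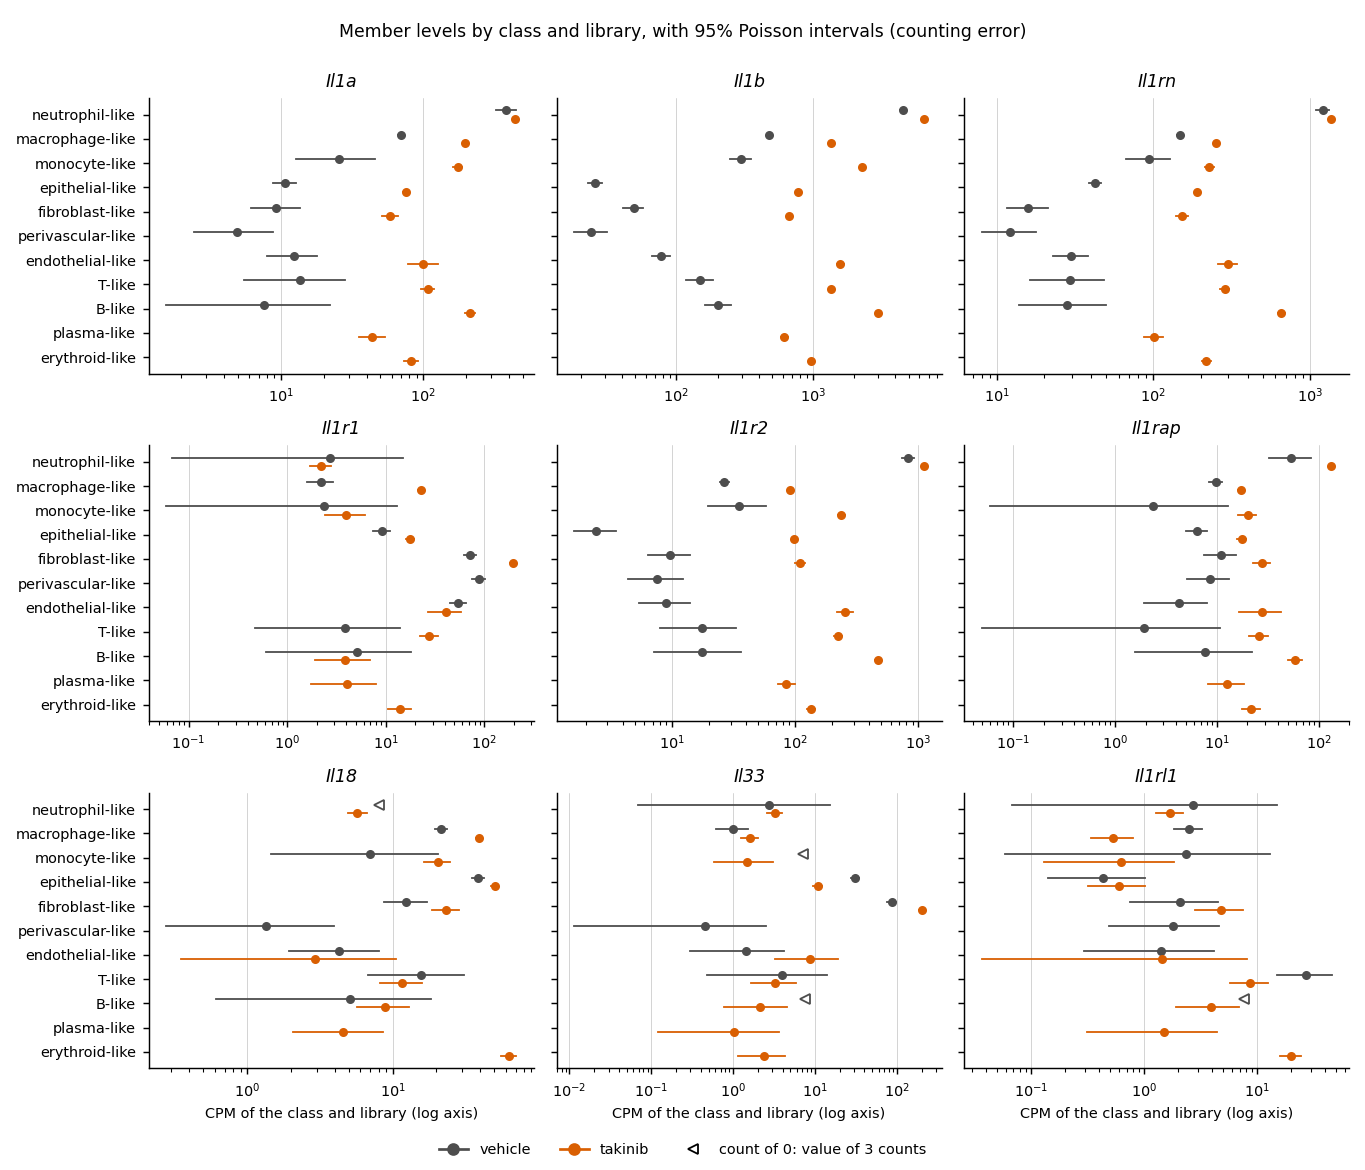
Level of each of the 9 genes by cell class (rows) in vehicle (grey) and takinib (orange), in CPM on a log axis, with 95% Poisson intervals as bars; an open triangle marks a count of 0 at the value of 3 counts. Il1a, Il1b, Il1rn, Il1r2 and Il1rap are highest in neutrophil-like cells of both libraries, Il1r1 and Il33 are high in fibroblast-like cells, and Il1b in B-like cells goes from 203 to 2972 CPM.

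The cells that held most UMIs of Il1b, Il1a, Il1rn, Il1r2 and Il1rap were macrophage-like in vehicle and neutrophil-like in takinib. Macrophage-like cells held 78.4% [77.7, 79.1] of the Il1b UMIs in vehicle and 18.8% [18.6, 18.9] in takinib, while neutrophil-like cells held 13.4% [12.8, 14.0] and 64.4% [64.25, 64.6]. For Il1rn the macrophage-like share was 72.6% and 17.1% and the neutrophil-like share 10.6% and 66.6%. For Il1a the neutrophil-like share was 7.79% and 51.4%. The decoy Il1r2 had 30.5% of its UMIs in neutrophil-like cells in vehicle and 75.3% in takinib, and Il1rap 5.45% and 69.4%. Neutrophil-like cells held 0.882% of all UMIs in vehicle and 25.5% in takinib, so their share of each of these genes was above their share of RNA in both libraries.

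The other genes had other holders. Il1r1 UMIs in vehicle lay in fibroblast-like (30.8%), perivascular-like (28.8%), endothelial-like (17.0%) and epithelial-like (15.4%) cells. In takinib they lay in macrophage-like (40.2%), fibroblast-like (30.9%) and epithelial-like (15.8%) cells, and perivascular-like cells numbered 14 against 584 in vehicle. Il33 UMIs were mostly epithelial-like (55.9%) and fibroblast-like (39.6%) in vehicle, and fibroblast-like (62.7%) and epithelial-like (19.5%) in takinib. Il18 UMIs were macrophage-like (46.8% and 48.1%) and epithelial-like (45.6% and 30.8%) in both.

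**Figure D2:**
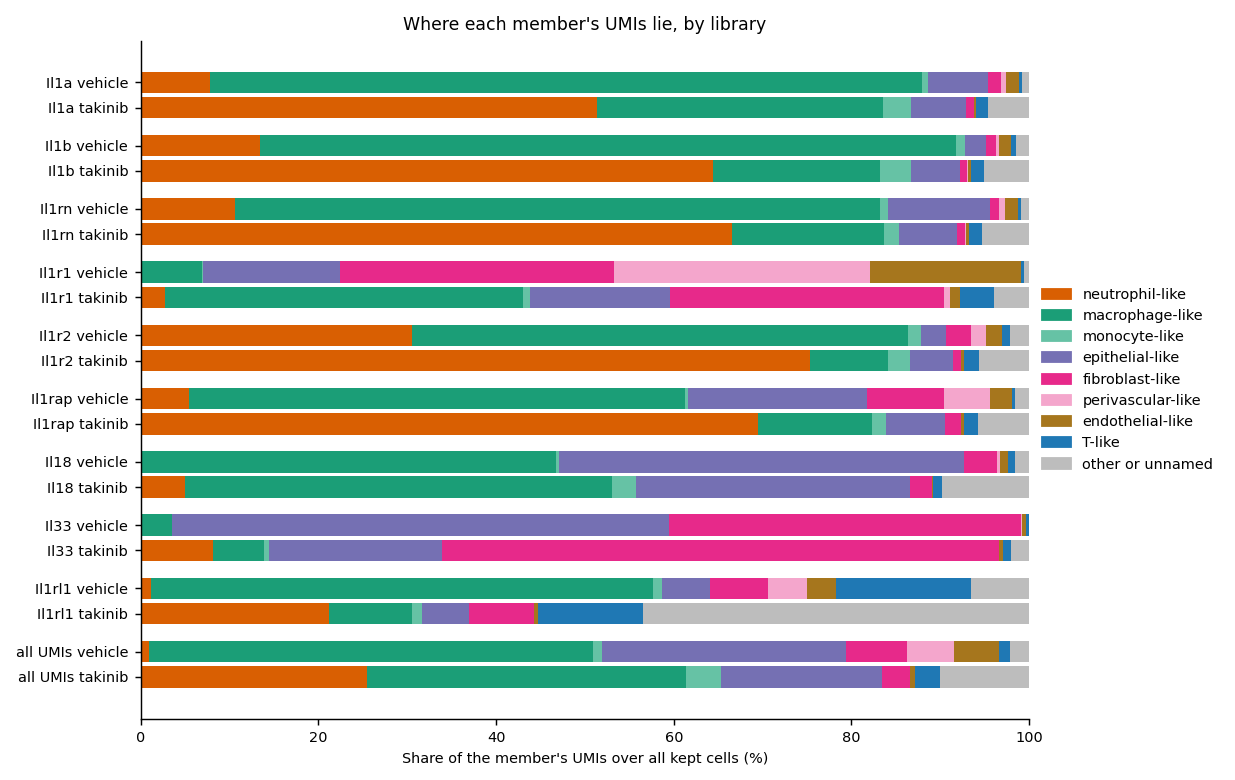
Share (%) of the UMIs of each gene that lay in each cell class, for vehicle and takinib, with the shares of all UMIs in the lowest pair of bars. For Il1b the macrophage-like share goes from 78.4% to 18.8% and the neutrophil-like share from 13.4% to 64.4%.

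Within neutrophil-like cells, which are short-lived granulocytes and a known source of IL-1 beta, the ligand and antagonist levels differed little next to the change in cell share. Il1b was 4566 CPM [4351, 4789] in vehicle and 6463 [6435, 6492] in takinib, a log2 ratio of 0.50 [0.43, 0.57]. Il1rn was 1212 and 1370 CPM (0.18 [0.04, 0.32]), and Il1r2 826 and 1104 CPM (0.42 [0.26, 0.59]). Il1a was 383 and 441 CPM, with an interval of the log2 ratio that included 0 (0.20 [-0.04, 0.45]). None of these 4 genes reached a 2-fold difference between the libraries, although Il1b (1.12) and Il1r2 (1.04) did once the median gene of the class was set to 0. Il1rap, the shared accessory chain, did, at 54.0 CPM in vehicle (20 counts) and 131 in takinib, a log2 ratio of 1.28 [0.65, 1.99].

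Every cell was also thinned to 1000 UMIs to compare shares of cells with a UMI at 1 depth. Cells with Il1b then made up 78.6% of neutrophil-like cells in vehicle and 88.0% in takinib (82.3% and 92.9% unthinned, median depths 1217 and 1831 UMIs). For Il1r2 the thinned shares were 52.6% and 53.1% (60.2% and 68.6% unthinned), and for Il1rn 57.1% and 60.8% (62.8% and 74.9%). The thinned shares of Il1r2 lay within 1 percentage point of each other. The median log2 ratio over the 10269 genes tested in this class was -0.62, so these genes were higher relative to the typical gene than their own ratios show.

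A gene was counted as past the fold where its counts in the 2 libraries summed to at least 50 and its log2 ratio was at least 1 in size. In neutrophil-like cells 1 of the 9 genes was past the fold upward (Il1rap) and 0 downward, where 6.42% of all genes tested were higher and 35.5% lower. The share of higher genes among those past the fold was 15.3%, and 46.35% with the median gene set to 0. The vehicle class held 370571 UMIs against 30547863. With at least 10 counts expected in each library, 3495 genes were left, of which 416 were higher and 540 lower. The median over the 9 genes was 0.20.

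For Il1b, Il1a, Il1rn and Il1r2 the neutrophil-like clusters of takinib lay further apart than the class values of the libraries did. Il1b ran from 1644 CPM in the cluster led by Ngp and Camp, genes of secondary granules made in immature neutrophils, to 8558 in the cluster led by Cxcr2 and G0s2. The Stfa2 cluster had 8474 CPM, the interferon-gene cluster led by Gbp2 and Cxcl10 had 7260, the Ccl3 cluster 6346 and the Lst1 cluster 3611. The antagonist followed another order: Il1rn was 1935 CPM in the Ccl3 cluster, 1829 in Stfa2, 1489 in Gbp2, 1201 in Lst1, 946 in Cxcr2 and 352 in Ngp. The decoy Il1r2 was highest in the Cxcr2 cluster at 1906 CPM and 863 in the Ccl3 cluster. The Cxcr2 cluster thus stood first for Il1b and Il1r2 but above only the Ngp cluster for Il1rn. Il1a was 730 CPM in Stfa2, 603 in Ccl3 and 244 in Cxcr2. In vehicle, the Siglecf clusters had 7161 CPM [6589, 7770] of Il1b in 67 cells and 4029 [3737, 4338] in 134 cells, values inside the range of the takinib clusters.

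**Figure D3:**
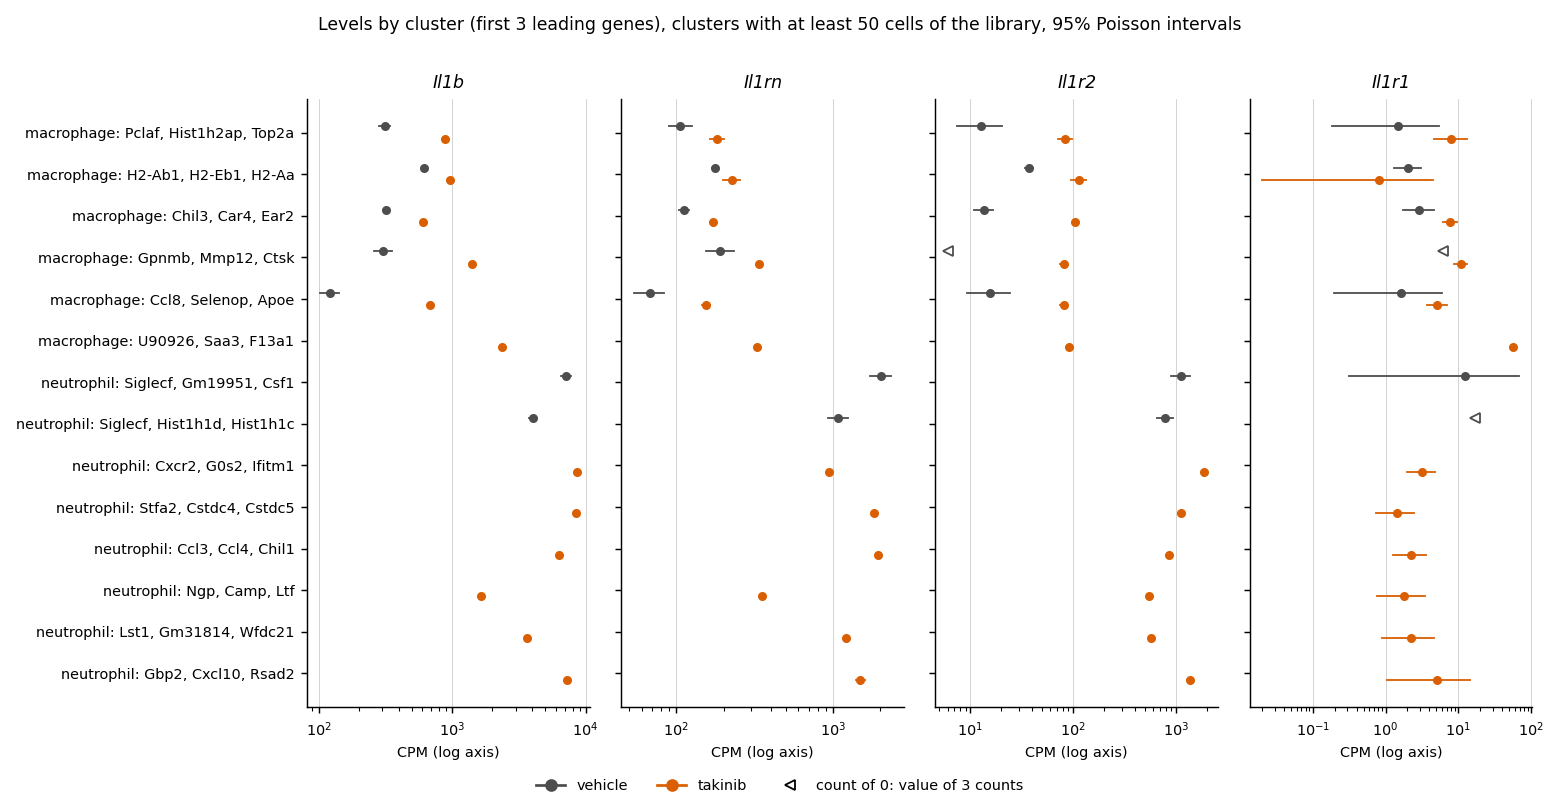
Il1b, Il1rn, Il1r2 and Il1r1 (panels) in the macrophage-like and neutrophil-like clusters, named by their first 3 leading genes, in CPM on a log axis with 95% Poisson intervals; grey is vehicle, orange takinib, and clusters with under 50 cells of a library have no point for it. Il1b is higher in takinib in each of the 5 macrophage-like clusters seen in both libraries, and Il1r1 stands at 56.8 CPM in the cluster led by U90926, Saa3 and F13a1.

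Macrophage-like cells had more Il1b, Il1a, Il1r2 and Il1r1 in takinib as a class. Il1b was 472 CPM [463, 482] in vehicle and 1343 [1332, 1354] in takinib, a log2 ratio of 1.51 [1.48, 1.54]. Il1a went from 69.6 to 196 CPM (1.496 [1.42, 1.58]), though not in every cluster. Il1rn went from 147 to 251 CPM, a smaller ratio of 0.77 [0.71, 0.83]. Upward, 4 of the 9 genes were past the fold and downward 1, where 6.51% of all genes tested were higher and 7.24% lower. Their median log2 ratio was 0.87 beside -0.05 over all genes. The Il1b and Il1a ratios depended on how the class was drawn: at Leiden resolution 2 they were 0.98 and 0.94.

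The clusters behind that class were not equally filled. The cluster led by MHC class II genes (H2-Ab1) held 2836 vehicle and 220 takinib cells, and the cluster led by U90926, Saa3 and F13a1 held 2 and 2033. Within clusters seen in both libraries, Il1b was 616 CPM in vehicle and 963 in takinib in the H2-Ab1 cluster, 318 and 602.5 in the Chil3 cluster, and 314 and 888 in the cycling Pclaf cluster. It was 305 and 1406 CPM in the Gpnmb cluster and 121.5 and 679 in the Ccl8 cluster. All 5 were higher in takinib, and the log2 ratio over these clusters, each of 50 or more cells per library, was 0.90. The U90926 cluster had 2384 CPM in takinib. Il1a was 92.4 and 88.4 CPM in the Chil3 cluster (log2 ratio -0.06 [-0.21, 0.09]), which held 1379 vehicle and 1640 takinib cells, and higher in takinib in the other 4, with log2 ratios of 0.89 to 1.95. S100a8 plus S100a9 stood at 56.9 to 404 CPM in these 5 clusters in vehicle and 3518 to 6670 in takinib. After the neutrophil profile was subtracted in proportion to these transcripts, 1052 CPM of Il1b were left in takinib macrophage-like cells, 454 in vehicle, and the log2 ratio was 1.21. For Il1rn, 187 and 142 CPM were left. The subtraction also left 1291 CPM of Il1b in takinib B-like cells, so the values left cannot be read as free of neutrophil RNA. Vehicle cells with Xist had 308.5 CPM of Il1b [287.5, 331] and those with Y-linked UMIs 492 [476, 509].

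Il1r1, the signalling receptor, was close to absent from vehicle macrophage-like cells at 2.19 CPM (46 counts) and reached 22.7 in takinib (log2 ratio 3.38 [2.95, 3.84]). Most of it lay in 1 cluster. The U90926 cluster had 56.8 CPM [52.8, 61.0], and the other takinib macrophage-like clusters 0.80 to 10.8. The leading genes Saa3, an acute-phase protein, and F13a1, a monocyte and macrophage gene, name that cluster, which has no counterpart of 50 cells in vehicle. In the 5 clusters seen in both libraries Il1r1 was 0 to 2.90 CPM in vehicle. In takinib it was 0.803 in the H2-Ab1 cluster and 5.17 to 10.8 in the others. Neutrophil-like cells had 2.19 CPM of Il1r1 in takinib, above the H2-Ab1 value (1 count) and below the others. Il1r2 was 26.7 and 91.35 CPM, of which 23.1 and 34.1 were left after the subtraction (log2 ratio 0.56).

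Monocyte-like cells, led by Ccr2, Ly6c2 and Vcan, had 297 CPM [248, 354] of Il1b in vehicle and 2262 [2219, 2305] in takinib (log2 ratio 2.93 [2.67, 3.19]). After the subtraction 145 and 1824 CPM were left. At 1000 UMIs per cell, 15.9% and 56.2% of monocyte-like cells had Il1b (25.3% and 77.7% unthinned). Il1a was 25.8 and 174 CPM and Il1rn 93.7 and 228. Il18 was 7.03 CPM (3 counts) and 20.3, a ratio of 1.53 [-0.06, 3.84] that was -0.14 at Leiden resolution 2. In this class 6 of the 6 genes tested were past the fold upward and 0 downward, where 11.5% of all genes were higher and 6.92% lower. S100a8 plus S100a9 were 2178 and 12808 CPM in the same cells. Their part in the result was not tested beyond the subtraction, and the values it left cannot be read as free of neutrophil RNA.

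Fibroblast-like cells, which lay down the matrix of these tumours, had the highest Il33 in both libraries among classes of at least 50 cells. Among those classes they also had the highest Il1r1 in takinib. The 14 perivascular-like cells of takinib, under that limit, had 15 Il1r1 UMIs among 74988. In fibroblast-like cells Il1r1 was 72.4 CPM [62.9, 82.85] in vehicle and 198.5 [184.5, 213] in takinib, a log2 ratio of 1.46 [1.23, 1.68]. Il33 was 86.2 CPM [75.8, 97.5] and 200.1 [186, 215], a log2 ratio of 1.22 [1.01, 1.43]. At 1000 UMIs per cell 7.01% and 14.97% of the cells had Il1r1 (19.7% and 50.6% unthinned, median depths 3338 and 7690 UMIs). In B-like cells, which should lack it, the thinned shares were 0.966% and 0.567% at median depths of 1546 and 1813 UMIs. For Il33 the thinned shares were 6.15% and 7.06%, a smaller step than in CPM, and the log2 ratio was 0.35 from thinned cells and -0.28 at Leiden resolution 2. Neutrophil-like cells of takinib had 2.19 CPM of Il1r1 and 3.21 of Il33, and after the subtraction Il1r1 stood at 72.5 and 214 CPM. Il1rap, needed for signalling by both receptors, was 11.03 and 27.6 CPM, with 11.04 and 19.2 left (log2 ratio 0.80).

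Of the 8 genes tested in fibroblast-like cells 7 were past the fold upward and 0 downward, where 6.42% of all genes were higher and 10.7% lower. Their median log2 ratio was 2.06 beside -0.14 over all genes, and setting that median to 0 moved the share of higher genes among those past the fold from 37.4% to 48.7%. The 4 with the largest ratios were Il1b (3.79), Il1r2 (3.51), Il1rn (3.27) and Il1a (2.66). Il1b went from 48.6 to 672 CPM, with 41.75 and 202 left after the subtraction. Vehicle fibroblast-like cells with Xist had 97.9 CPM of Il1r1 and 36.7 of Il33, against 67.3 and 90.0 in those with Y-linked UMIs. Set against vehicle cells with Xist, the Il1r1 log2 ratio was 1.02 and the Il33 log2 ratio 2.45. Perivascular-like cells of vehicle had 88.0 CPM of Il1r1 [76.1, 101], which overlapped the fibroblast-like interval, and endothelial-like cells followed at 55.0 [45.4, 65.96]. In takinib, endothelial-like cells had 40.7 CPM [27.1, 58.9], and the interval of the log2 ratio, -0.43 [-1.08, 0.17], included 0. From thinned cells the ratio was -1.73 [-4.82, 0.21].

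Epithelial-like cells, the lineage of ductal tumour cells, had less Il33 in takinib. Il33 was 30.6 CPM [27.5, 34.0] in vehicle and 10.8 [9.47, 12.3] in takinib, a log2 ratio of -1.502 [-1.75, -1.26]. The vehicle value was uneven between the sexes: 5.23 CPM (7 counts) in 208 cells with Xist and 44.7 CPM in 825 cells with Y-linked UMIs. Against vehicle cells with Xist the ratio turned to 1.05, so the lower level in takinib cannot be told apart from the mix of sexes in vehicle. At 1000 UMIs per cell 1.62% and 1.51% of the cells had Il33 (6.42% and 5.87% unthinned), and the log2 ratio from thinned cells was -0.25. By cluster, Il33 was 111 and 53.2 CPM in the cluster led by Tm4sf1, Prl2c2 and Cdkn2a, and 31.6 and 16.2 in the cluster led by the gastric genes Gkn3 and Tff2. It was 3.45 and 3.46 CPM in the largest cluster, led by Mmp7. The Tm4sf1 cluster held 191 vehicle and 79 takinib cells, and 252 of the 353 Il33 UMIs of vehicle epithelial-like cells.

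Il18, a cytokine made by epithelia and macrophages, was 38.4 CPM in vehicle and 50.2 in takinib epithelial-like cells (log2 ratio 0.39 [0.22, 0.55]). Its level followed the cluster more than the library. In the Gkn3 cluster it was 85.4 and 114 CPM, and in the Mmp7 cluster 22.8 and 24.0. In the Spink4 and Muc2 cluster, which carries goblet-cell genes, it was 76.4 and 43.3 CPM. The Gkn2 and Gkn1 cluster reached 171 CPM in takinib and had under 50 vehicle cells. In macrophage-like cells Il18 was 21.6 and 39.5 CPM (0.87 [0.72, 1.02]), highest in the Chil3, Car4 and Ear2 cluster at 40.6 and 94.7. Vehicle macrophage-like cells with Xist had 56.6 CPM of Il18 and those with Y-linked UMIs 13.02, and against the first the log2 ratio was -0.52. Summed over the clusters of at least 50 cells per library it was 1.25. Taken cluster by cluster, it ran from -0.06 in the H2-Ab1 cluster to 1.22 in the Chil3 cluster. Neutrophil-like cells of vehicle had 0 counts of Il18, a limit of 3 counts or 8.10 CPM, and those of takinib 5.73 CPM.

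The antagonist Il1rn was 42.2 CPM in vehicle epithelial-like cells. Per 100 S100a8 and S100a9 UMIs these cells had 42.5 Il1rn UMIs in vehicle, against 1.91 in vehicle neutrophil-like cells. Vehicle droplets of 1 to 100 UMIs had 84.3 CPM of Il1rn, and their part in the epithelial-like level was not tested. In takinib Il1rn stood at 190 CPM and at 1.92 per 100, and 98.7 CPM were left after the subtraction. Il1b was 25.3 and 780 CPM, with 18.15 and 339 left. Of the 8 genes tested in this class 5 were past the fold upward and 1 downward, where 7.27% of all genes were higher and 8.66% lower. The median over the 8 was 1.82 beside -0.16 over all genes, and setting the latter to 0 moved the share of higher genes among those past the fold from 45.6% to 58.1%.

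**Figure D4:**
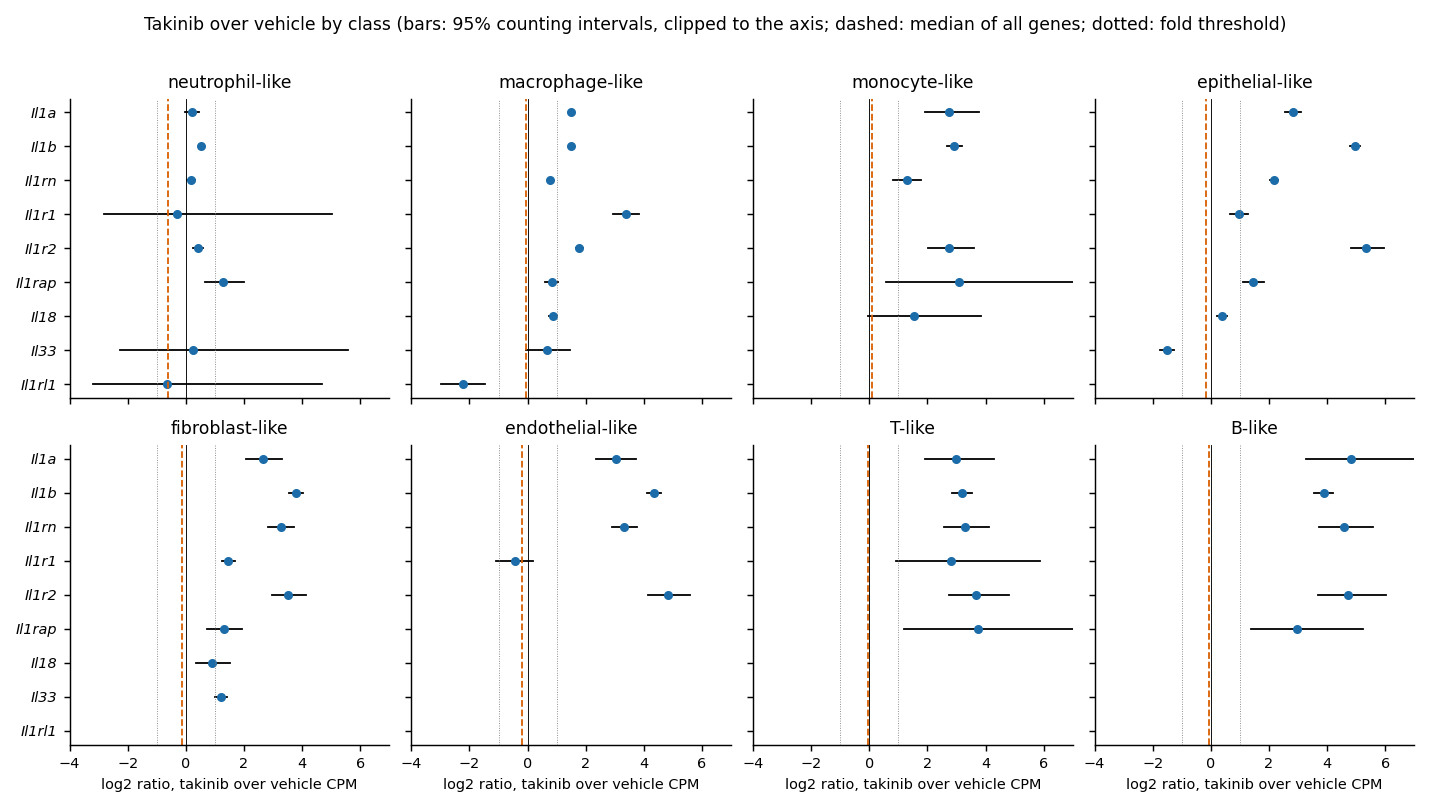
Log2 ratio of takinib to vehicle CPM for the 9 genes in 8 cell classes; bars are 95% counting intervals clipped to the axis, the dashed line is the median of all genes tested and dotted lines mark a 2-fold difference. Genes with under 50 counts have no point. Il33 lies at -1.502 in the epithelial-like panel and at 1.22 in the fibroblast-like one.

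Lymphoid and endothelial-like cells of takinib also carried IL-1 transcripts, together with S100a8 and S100a9. Il1b in B-like cells was 203 CPM in vehicle and 2972 in takinib (log2 ratio 3.87 [3.56, 4.21]), in T-like cells 148 and 1347 (3.19 [2.86, 3.53]) and in endothelial-like cells 77.3 and 1583 (4.36 [4.12, 4.60]). S100a8 plus S100a9 were 773 and 44534 CPM in B-like, 493 and 16832 in T-like, and 428 and 24345 in endothelial-like cells. Per 100 of these UMIs, takinib cells had 6.68 Il1b UMIs in B-like, 6.50 in endothelial-like, 6.53 in fibroblast-like, 6.44 in plasma-like and 6.73 in erythroid-like cells. These 5 classes, which are not known as main sources of IL-1 beta, lay within 6.44 to 6.73, epithelial-like and T-like cells had 7.88 and 8.01, and neutrophil-like cells had 4.71. Macrophage-like cells stood at 18.3 and monocyte-like cells at 17.7, outside that band. Vehicle B-like, endothelial-like and fibroblast-like cells had 26.2, 18.05 and 49.65, macrophage-like cells 168 and monocyte-like cells 13.7. In takinib the thinned share of cells with Il1b was 51.2% in B-like and 23.2% in plasma-like cells (59.2% and 48.8% unthinned, median depths 1813 and 8695 UMIs), against 38.1% in macrophage-like cells (63.3% unthinned, 6190 UMIs). Thinned shares in fibroblast-like and endothelial-like cells were 25.4% and 39.2% (49.7% and 57.8% unthinned, 7690 and 4903 UMIs). The takinib macrophage-like share was thus below the B-like and endothelial-like ones and above the plasma-like and fibroblast-like ones. S100a8 plus S100a9 stood at 9546 CPM in plasma-like and 10291 in fibroblast-like cells, closer to the macrophage-like 7351 than the B-like 44534. Monocyte-like cells (56.2%) and neutrophil-like cells (88.0%) lay above all 4 of these classes. In vehicle the shares were 8.21% in B-like and 25.0% in macrophage-like cells (8.21% and 43.0% unthinned, 1546 and 3899 UMIs).

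In B-like cells 5 of 5 genes tested were past the fold upward and 0 downward, where 14.1% of all genes were higher and 6.56% lower. In T-like cells it was 6 of 6 and 0 (8.02% and 4.21%), and in endothelial-like cells 4 of 5 and 0 (5.06% and 10.9%). In endothelial-like cells the median of all genes was -0.18, and setting it to 0 moved the share of higher genes among those past the fold from 31.75% to 47.4%. The part of neutrophil transcripts in these counts was not tested, and 1291 CPM of Il1b were left in takinib B-like cells after 32.0% of their UMIs had been subtracted.

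**Figure D5:**
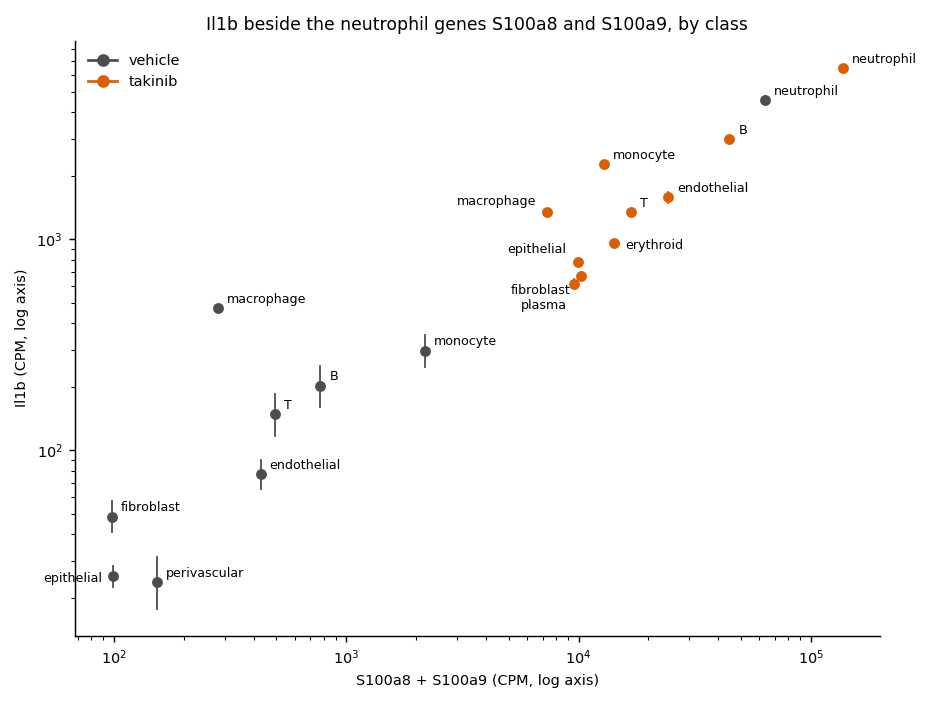
Il1b (CPM, log axis) against S100a8 plus S100a9 (CPM, log axis) by cell class in vehicle (grey) and takinib (orange), with 95% Poisson intervals of Il1b as bars. The takinib B-like, endothelial-like, fibroblast-like, plasma-like and erythroid-like points have 6.44 to 6.73 Il1b UMIs per 100 S100 UMIs, and macrophage-like (18.3) and monocyte-like (17.7) points lie above them.

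T-like cells of takinib held a group with the IL-1 receptor. Il1r1 was 3.90 CPM in vehicle (2 counts) and 27.6 in takinib. Among the 1254 takinib T-like cells, 63 had a UMI of Il17a, the cytokine that gamma-delta T cells and Th17 cells make and that IL-1 is known to promote. This split was chosen after the values were seen. Those 63 cells had 176 CPM of Il1r1 [130, 233], 48 of the 93 Il1r1 UMIs of the class, and the other 1191 cells 14.5 [10.6, 19.4]. The delta-chain gene Trdc stood at 693 and 25.8 CPM in the same groups, and Cd163l1, a gene of Il17a-producing gamma-delta T cells, at 898 and 33.2. Il1r2 was 421.5 and 204 CPM, Il1b 777 and 1398, Il1rn 150 and 297, Il1a 77.0 and 110, and S100a8 plus S100a9 11527 and 17298. Median depths were 3208 and 1845 UMIs, and the part of neutrophil transcripts in these values was not tested. Vehicle had 0 of 249 T-like cells with Il17a.

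Il1rl1, the IL-33 receptor, was rare in both libraries, with 92 UMIs in vehicle and 246 in takinib. T-like cells had 27.3 CPM (14 counts) in vehicle and 8.59 (29 counts) in takinib, under the count minimum. Cells with Foxp3 and a Cd3 gene, the marks of regulatory T cells, which are known to carry ST2, had 85.7 CPM (6 counts, 20 cells) and 78.9 CPM (14 counts, 33 cells). Cells gated on mast or basophil genes had 30.95 CPM (4 counts, 13 cells) and 95.7 CPM (18 counts, 27 cells). The mast or basophil-like cluster went the other way. It had 5 Il1rl1 UMIs among 7430 in vehicle (6 cells) and 4 among 55977 in takinib (14 cells). Takinib cells with markers of group 2 innate lymphoid cells and no Cd3 gene had 6.64 CPM (3 counts, 18 cells). Those 18 cells held 452067 UMIs, against 3374701 in 1254 T-like cells of takinib. In them 42 Il33 UMIs came from 1 cell, and 11 cells had Il18. Whether they were lymphoid was not tested. Erythroid-like cells of takinib, absent from vehicle but for 4 cells, had 19.8 CPM and 34.1% of that library's Il1rl1 UMIs. Macrophage-like cells had 2.48 CPM (52 counts) in vehicle and 0.536 (23 counts) in takinib, a log2 ratio of -2.21 [-2.98, -1.47]. Of the 52 vehicle counts, 41 lay in the H2-Ab1 cluster, where Il1rl1 was 3.50 CPM in vehicle and 4.82 (6 counts) in takinib, a log2 ratio of 0.46 [-1.06, 1.71]. That cluster held 2836 vehicle and 220 takinib cells, and the lower class value was not seen within it. In the Ccl8, Gpnmb and Pclaf clusters Il1rl1 was lower in takinib, from 1 to 4 counts per library. It was 2.45 and 0.272 CPM in the Ccl8 cluster, and 0.644 and 0.745 CPM in the Chil3 cluster (4 and 8 counts).

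Genes of the same pathway were read from 4 lists. The symbols with "f", such as Il1f9, are older names; Il1f9 is now Il36g, which encodes the ligand IL-36 gamma. Il1f9 was past the fold upward in all 8 classes. In neutrophil-like cells it was 72.9 CPM in vehicle and 653 in takinib (3.16 [2.62, 3.77]), and in macrophage-like cells 0.762 and 44.7 (5.88 [5.17, 6.69]). Irak3, which restrains IL-1 receptor signalling, was 43.2 and 376 CPM in neutrophil-like cells (3.12 [2.42, 3.93]) and 13.04 and 106 in macrophage-like cells (3.02 [2.85, 3.20]). Mefv, which encodes the inflammasome protein pyrin, was 1.86 and 16.6 CPM in macrophage-like cells (3.16 [2.69, 3.67]). The inflammasome sensor Nlrp3 was 97.15 and 407 CPM in neutrophil-like cells (2.07 [1.60, 2.58]) and 32.6 and 86.4 in macrophage-like cells (1.41 [1.29, 1.53]). The part of neutrophil transcripts in the macrophage-like values was not tested.

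Most of the signalling chain differed by less than 2-fold. Of the 11 receptor-proximal genes, which include Myd88, Irak4, Traf6 and the takinib target Map3k7, 11 were tested in neutrophil-like cells with 1 higher (Irak3) and 1 lower, and 11 in macrophage-like cells with 1 higher and 0 lower. Their medians were -0.53 and 0.06, beside -0.62 and -0.05 over all genes. Of all genes tested, 6.42% were higher and 35.5% lower in neutrophil-like cells, and 6.51% and 7.24% in macrophage-like cells, which is the background for each list here. The lower one in neutrophil-like cells was Tab1, a TAK1-binding partner, at 8.10 CPM in vehicle from 3 counts and 2.62 in takinib (-1.63 [-3.23, 0.68]). Of 12 inflammasome genes, 11 were tested in neutrophil-like cells with 4 higher and 3 lower, and 11 in macrophage-like cells with 3 higher and 0 lower. The lowest in neutrophil-like cells was Nlrp1b, at 10.8 CPM (4 counts) and 3.31 (-1.71 [-3.11, 0.20]). Of the other receptors 3 were tested in neutrophil-like cells with 1 higher and 0 lower, and 4 in macrophage-like cells with 2 higher and 1 lower, the lower one being Sigirr, an inhibitory family member, at 2.43 and 0.886 CPM (-1.45 [-2.10, -0.82]).

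In the other classes the largest ratios among these lists were again Il1f9, Nlrp3 and Irak3. Il1f9 went from 0.260 to 60.2 CPM in epithelial-like, from 0.345 to 54.7 in fibroblast-like and from 1.90 to 167 in endothelial-like cells, with 3, 1 and 4 vehicle counts. It went from 7.03 to 70.0 CPM in monocyte-like cells, where Irak3 was next at 14.05 and 99.15. Nlrp3 went from 1.73 to 53.6 CPM in epithelial-like, from 3.79 to 43.5 in fibroblast-like and from 7.59 to 88.7 in endothelial-like cells. In B-like cells Il1f9 went from 2.54 to 287 CPM and Nlrp3 from 0 counts to 182 CPM, at least 4.58 on the log2 scale. In T-like cells Il1f9 went from 0 counts to 116.5 CPM, at least 4.32 on the log2 scale, and Irak3 from 5.84 to 99.6. Past the fold downward were Sigirr in endothelial-like cells (51.2 and 20.4 CPM) and Tab1 in fibroblast-like cells (11.7 and 5.57). Il1f9, Nlrp3 and Irak3 were also past the fold upward in neutrophil-like cells, and the part of neutrophil transcripts in these ratios was not tested.

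Genes most like each member were ranked by Pearson correlation of log2(CPM + 10) over 19 class and library units, among 13534 genes; units of a library share its capture and depth, so r is a description. Il1b went most closely with Nfkbia (r = 0.975), the gene of the NF-kB inhibitor, then Trem1 (0.9697) and Cd33 (0.964). Il1a went with Cd33 (0.976), Dusp1 and Ccrl2 (0.971 and 0.9705), and Il1rn with Tnf, Trem1 (both 0.961) and Junb (0.960). Il1r2 went with the neutrophil genes Csf3r (0.9804), Trem1 (0.977) and S100a8 (0.966), and Il1rap with Cstdc5 (0.9499), Stfa2 and Gm20406 (both 0.945). For Il1r1 they were Arl6 (0.9215), Tspan4 (0.9125) and Crtap (0.912), and for Il33 Apol9a (0.968), Cdh3 (0.954) and Rpp25 (0.954). Il18 had lower values, with Syngr1 (0.879), Selenbp1 (0.864) and Nmnat3 (0.814), as had Il1rl1 with Shld3 (0.875), Ubash3a (0.871) and Gstp3 (0.852).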

How the data were processed

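Single-cell RNA was measured in 1 vehicle and 1 takinib library. The authors deposited raw UMI counts, made with Cell Ranger 4 for vehicle and cellranger-6.1.1 for takinib, per the file headers; the submitters' processing notes also list mm10, Cell Ranger 2.1.1, STAR 2.0.4b and featureCounts 1.45 without roles, and the chemistry is not given in the sources used here. The takinib matrix starts at 500 UMIs per barcode, so its free RNA in empty droplets was not analysed here.

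Cells needed 1000 UMIs and 500 genes or more, with no more than 20% of UMIs mitochondrial. Scrublet removed 314 vehicle doublets; in takinib its threshold marked 0.00373% of barcodes and had not worked, so the top 6% by score (1607) went instead. Libraries were clustered together without the 9 genes and the pathway genes (scanpy 1.11.5, 10000 counts per cell, log scale, 2000 variable genes, 30 components, 15 neighbours, Leiden resolution 1 with igraph 0.11.9). A cluster was named from at least 3 detected markers of 19 classes, and stayed unnamed where another lineage scored at least 0.75 of the best or where precursor genes such as Elane and Mpo led it. A cluster in doubt was clustered again at resolution 0.5. This naming rule was set after the clusters were seen. Names are rebuilt, not the authors' own.

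Counts were summed per class and library and divided by the UMIs of that class and library (CPM). Intervals are exact Poisson for levels, Clopper-Pearson for shares and exact conditional for ratios, at 95%. For 0 counts the limit is 3 counts per class and library. Ratios needed 100 cells or more of a class per library, and levels 50 or more, except for the small groups of cells gated on marker genes, whose cell numbers are given. In the subtraction, a library's own neutrophil-like profile was removed from each class in proportion to its S100a8 and S100a9. What it leaves cannot be read as free of neutrophil RNA. Ratios were tested on simulated data. The named genes are the 9 members, the 3 genes most correlated with each, and the 2 highest and 2 lowest pathway genes past the fold in each class, given also in other classes where a result turns on them. The members, marker sets and lists were chosen with earlier results of these data known. Sequences are RefSeq's on GRCm38.p6, and gene positions are from GENCODE on GRCm38.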

Additional observations from a re-analysis of the deposited data

Results flagged for a closer look

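The log2 ratio of Il33 pointed opposite ways in the 2 classes that hold most of it: -1.502 in epithelial-like cells (30.6 CPM in vehicle and 10.8 in takinib) and 1.22 in fibroblast-like cells (86.2 and 200.1 CPM). With 1 library per group the difference between the classes was not tested. The epithelial-like value turned positive against vehicle cells with Xist, and the fibroblast-like value turned negative at a finer clustering, as given in the next section.

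Barcodes with at least 500 and under 1000 UMIs, left out of the comparisons above, carried the same 5 genes. In takinib they had 4237 CPM of Il1b, against 421.5 in vehicle. Il1rn stood at 1064 and 126 CPM, Il1r2 at 773 and 65.3, Il1a at 259 and 34.25, and Il1rap at 97.3 and 10.4. The takinib values were between those of all kept cells and those of neutrophil-like cells for Il1b, Il1rn, Il1r2, Il1a and Il1rap.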

How the results depend on the processing

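No paired analysis was possible because each group has 1 library, and for the same reason no library was left out in turn. Values in this section are log2 ratios of takinib to vehicle.

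Il1b in macrophage-like cells (1.51) was 0.93 with 500 UMIs and 250 genes as minimum, 1.47 with at most 10% mitochondrial UMIs, 1.21 with doublets kept, 1.41 after thinning, 1.04 with libraries clustered separately, and 0.91 and 0.98 at Leiden resolutions 0.5 and 2. It was 1.55 with the median gene set to 0, 1.21 after subtraction of the neutrophil profile, 2.12 against vehicle cells with Xist, and 0.90 over clusters with at least 50 cells per library. Il1rn in the same class (0.77) was 0.56, 0.85, 0.63, 0.54, 0.56 and 0.53 with the lower minimum, doublets kept, thinning, separate clustering and both resolutions. It was 0.40 after subtraction, 1.38 against cells with Xist and 0.57 over the clusters of at least 50 cells. Il1b in neutrophil-like cells (0.50) was 0.32 with the lower minimum, 0.37 thinned, 0.59 clustered separately and 1.12 with the median gene set to 0. The last setting also gave 0.79 for Il1rn (0.18) and 1.04 for Il1r2 (0.42). Il1r1 in fibroblast-like cells (1.46) was 1.02 clustered separately, 1.165 at resolution 2 and 1.02 against cells with Xist. All of these kept their sign.

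Signs turned for Il33 in epithelial-like cells (1.05 against cells with Xist), Il33 in fibroblast-like cells (-0.28 at resolution 2), Il18 in monocyte-like cells (-0.0020 clustered separately, -0.14 at resolution 2), Il18 in macrophage-like cells (0.87, -0.52 against cells with Xist) and Il1r1 in neutrophil-like cells (-0.30, 0.32 with the median gene set to 0). The cause was not tested. Among 55 results, 54 moved by less than their counting interval when no cluster was left unnamed, as did all 25 that had a value with at least 2000 UMIs and 1000 genes. Of 47 results, 45 did so when the 9 genes and the pathway genes entered the clustering.

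Numbers of genes past the fold depended on the count minimum and a pseudocount of 10 CPM. In neutrophil-like cells 4307 genes became 1795 with the pseudocount and 956 with at least 10 counts expected in each library, and in monocyte-like cells 1378 became 706 and 768. With the pseudocount the counts were 840 for B-like (from 1308), 447 for T-like (892), 681 for endothelial-like (1178), 521 for epithelial-like (2122), 877 for fibroblast-like (1715) and 361 for macrophage-like cells (1711). With no minimum they were 4350, 3586, 3722, 4457, 4237 and 4580 in that order, and 4020 for monocyte-like cells. With a minimum of 20 they were 2228, 1651 and 2034 for B-like, T-like and endothelial-like cells. The expected-count minimum and the restriction to clusters of at least 50 cells were chosen after seeing the data. Vehicle neutrophil-like cells, with 370571 UMIs, limit the precision of every ratio in that class, and members under 50 counts were not counted as past the fold.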

Other observations

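Vehicle droplets of 1 to 100 UMIs, which hold too little RNA for a cell, had 282 CPM of Il1b from 184 UMIs, close to the 299 CPM of the barcodes past the filters. They had 84.3 CPM of Il1rn and 35.3 of Il1a, beside 101 and 42.9 past the filters. Takinib has no such droplets to compare.

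Takinib epithelial-like clusters differed in Il1b along with S100a8 and S100a9. The Spink4 cluster had 2373 CPM of Il1b at 24463 CPM of S100a8 plus S100a9, the Gkn2 cluster 2245 at 15501, the Mmp7 cluster 819 at 11391, the Tm4sf1 cluster 574.5 at 6454 and the Gkn3 cluster 406 at 4839. The order by Il1b was thus the order by the neutrophil transcripts in these 5 clusters. In vehicle the 4 clusters with at least 50 cells had 15.4 to 31.1 CPM of Il1b.

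Takinib erythroid-like cells, led by haemoglobin genes, had 62.9 CPM of Il18 [55.6, 70.9], the highest of any takinib class, and 13.9 CPM of Il1r1. Vehicle had 4 such cells, so no comparison was made.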
